A study of Mus musculus with 2 samples.

Results

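The Notch receptors, ligands and targets described here are 10 mouse genes: the receptors Notch1, Notch2, Notch3 and Notch4, the ligands Dll1, Dll4, Jag1 and Jag2, and the target genes Hes1 and Hey1. They were taken by gene symbol from the deposited transcript tables and linked to the gene table by gene identifier, and all 10 were found among the 55536 annotated genes of that table. Total RNA, reduced for ribosomal RNA and carrying ERCC spike-ins (synthetic RNAs added at known amounts), was measured in adrenal glands of females aged 14 days. The strain was the F1 hybrid B6CASTF1/J, with no treatment or engineered allele named, and each library took 300 ng of RNA. The labels give 1 group with 2 biological replicates, so the comparison available is between these libraries. Both libraries carry one donor identifier and a library description that names 3 pooled females, but for replicate 2 the tissue is labelled with 1 female and its number. It is therefore not settled that different animals gave the replicates, and SDs may measure a partly technical spread. The p-values cover counting error only and measure no spread between animals.

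Notch receptors are single-pass membrane proteins that are bound by Delta-like or Jagged ligands on a neighbouring cell. Binding lets ADAM proteases and then gamma-secretase cut the receptor, and the freed intracellular domain enters the nucleus, joins the DNA-binding protein RBPJ and a Mastermind co-activator, and turns on genes such as Hes1 and Hey1, which encode transcriptional repressors. In many organs Notch1, Notch4, Dll4 and Jag1 are expressed in endothelial cells, and Notch3 is a receptor of pericytes and vascular smooth muscle. Notch1 is also needed for T cell development in the thymus.

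The depth was 37586172 expected counts for replicate 1 against 33844950 for replicate 2, and spike-ins took 0.337% and 0.322% of them. A count of 0 allows up to 7.98e-06% of the counts in replicate 1 and 8.86e-06% in replicate 2 (3 counts, counting error only). The labelled tissue was found in both libraries: the 6 adrenal cortex markers summed to 4979 TPM in replicate 1 against 2024 TPM in replicate 2 (TPM is a share of all transcripts, scaled by transcript length), and the 6 chromaffin markers of the medulla to 1573 and 722 TPM in replicates 1 and 2. Replicate 2 stood apart in liver and muscle transcripts, with 320 TPM in replicate 1 against 18550 TPM in replicate 2 over 7 hepatocyte markers, and 16.1 against 385.5 TPM over 6 skeletal muscle markers. Replicate 1 stood apart in thymus transcripts, with 53.6 TPM against 2.04 TPM in replicate 2 over 11 thymocyte and T cell markers. Of the 6 thymus epithelium markers, Psmb11, Prss16 and Aire had 21, 49 and 2 counts in replicate 1 and 0 in replicate 2. The 6 summed to 6.83 TPM in replicate 1 against 4.43 TPM in replicate 2, mostly from Ccl25 at 5.27 and 4.37 TPM.

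Short transcripts mattered for several of the levels below, because a few reads on a short transcript give a large TPM. The 10 genes have 56 annotated transcripts, of which 42 are non-coding and 40 are under 1000 bases. The main coding transcript of each gene is the one numbered 201. The start of 4 short non-coding transcripts is shown, since these moved a gene's level or differed between the quantifications. The letters run 5′ to 3′ and come from the GENCODE M21 transcripts of GRCm38 (mm10), and capitals mark bases that lie in an intron of the main coding transcript.
Notch1-202: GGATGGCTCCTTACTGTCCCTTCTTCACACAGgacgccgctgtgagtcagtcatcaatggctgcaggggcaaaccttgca
Notch4-210: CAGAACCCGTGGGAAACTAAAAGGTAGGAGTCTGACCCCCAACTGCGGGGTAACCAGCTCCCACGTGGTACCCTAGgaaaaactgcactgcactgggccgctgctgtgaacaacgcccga
Hes1-203: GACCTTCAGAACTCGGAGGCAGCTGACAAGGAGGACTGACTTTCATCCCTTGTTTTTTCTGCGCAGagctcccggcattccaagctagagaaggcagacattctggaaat
Jag2-205: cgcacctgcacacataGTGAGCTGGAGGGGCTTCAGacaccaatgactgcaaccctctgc
The capitals lie at chr2:26469718-26469749 on the minus strand for Notch1-202, at chr17:34587041-34587116 on the plus strand for Notch4-210, at chr16:30066097-30066162 on the plus strand for Hes1-203 and at chr12:112913145-112913164 on the minus strand for Jag2-205. Outside such intronic bases these transcripts follow exons of the coding one, which shares 92.1% of the bases of Notch1-202, 87.7% of Notch4-210, 83.7% of Hes1-203 and 97.3% of Jag2-205. Reads from the shared bases can be placed on either transcript by the quantification.

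Among the receptors, Notch2 had the highest mean level and Notch3 the lowest. Notch2, a broadly expressed receptor (ENSMUSG00000027878.11, chr3:98013527-98150361, plus strand, 34 exons in the main transcript), had 12.2 TPM in replicate 1 against 9.36 TPM in replicate 2, from 4047 and 2881 expected counts, a mean of 10.8 ± 2.03 TPM (SD, n = 2). Notch1 (ENSMUSG00000026923.15, chr2:26457903-26516663, minus strand, 34 exons) had 9.0 TPM in replicate 1 against 7.0 TPM in replicate 2, from 2335 and 1647 counts, a mean of 8.0 ± 1.41 TPM (SD, n = 2). Notch4, a receptor best known from endothelium (ENSMUSG00000015468.14, chr17:34564268-34588503, plus strand, 30 exons), had 9.6 TPM in replicate 1 against 8.06 TPM in replicate 2, from 1188 and 980 counts, a mean of 8.83 ± 1.09 TPM (SD, n = 2). The range of Notch4 over the libraries overlapped those of Notch2 and Notch1, so the ranges do not resolve its place. Within each library Notch4 lay between Notch2 and Notch1. Notch2 exceeded Notch1 by 0.44 log2 units in replicate 1 and 0.42 in replicate 2, with no overlap. Notch3 (ENSMUSG00000038146.8, chr17:32120820-32166852, minus strand, 33 exons) had 4.86 TPM in replicate 1 against 4.39 TPM in replicate 2, from 1332 and 1147 counts, a mean of 4.63 ± 0.332 TPM (SD, n = 2), below the other receptors in both libraries.

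The ligands were lower than the receptors. Jag1 (ENSMUSG00000027276.7, chr2:137081456-137116644, minus strand, 26 exons), a ligand expressed in vascular wall and endothelium, had 3.99 TPM in replicate 1 against 3.26 TPM in replicate 2, from 670 and 536 counts. Jag2 (ENSMUSG00000002799.6, chr12:112907819-112929776, minus strand, 26 exons), the second Jagged ligand, had 3.3 TPM in replicate 1 against 3.37 TPM in replicate 2, from 301 and 371 counts. Dll4 (ENSMUSG00000027314.6, chr2:119325784-119335962, plus strand, 11 exons), the Delta-like ligand of arterial and sprouting endothelium, had 3.2 TPM in replicate 1 against 3.45 TPM in replicate 2, from 404 and 415 counts. These 3 ligands averaged 3.63 ± 0.516, 3.34 ± 0.0495 and 3.33 ± 0.177 TPM in that order (SD, n = 2), and their ranges overlapped. Dll1 (ENSMUSG00000014773.13, chr17:15367354-15376872, minus strand, 11 exons), a ligand with many roles in development, was the lowest ligand over all transcripts. It had 2.3 TPM in replicate 1 against 1.88 TPM in replicate 2, from 188 and 168 counts, a mean of 2.09 ± 0.297 TPM (SD, n = 2).

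Hes1 (ENSMUSG00000022528.8, chr16:30064384-30067796, plus strand, 4 exons) had 5.4 TPM in replicate 1 against 5.82 TPM in replicate 2, from 250 and 256 counts, a mean of 5.61 ± 0.297 TPM (SD, n = 2) that placed it between the higher receptors and Notch3. Hey1 (ENSMUSG00000040289.8, chr3:8663359-8667256, minus strand, 5 exons), a transcriptional repressor that acts in arterial and cardiac development, had 2.07 TPM in replicate 1 against 2.44 TPM in replicate 2. These came from 150 and 151 counts. The mean of Hey1 was 2.26 ± 0.262 TPM (SD, n = 2), and its range overlapped that of Dll1. The level of Hes1 exceeded that of Hey1 by 1.38 log2 units in replicate 1 and 1.25 in replicate 2. Summed over the receptors, TPM came to 35.7 in replicate 1 and 28.8 in replicate 2. The sum over the ligands was 12.8 TPM in replicate 1 against 11.96 TPM in replicate 2, so receptors exceeded ligands by 1.48 log2 units in replicate 1 and 1.27 in replicate 2. Fewer cells of a type and less RNA per cell cannot be told apart in these bulk samples.

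**Figure D1:**
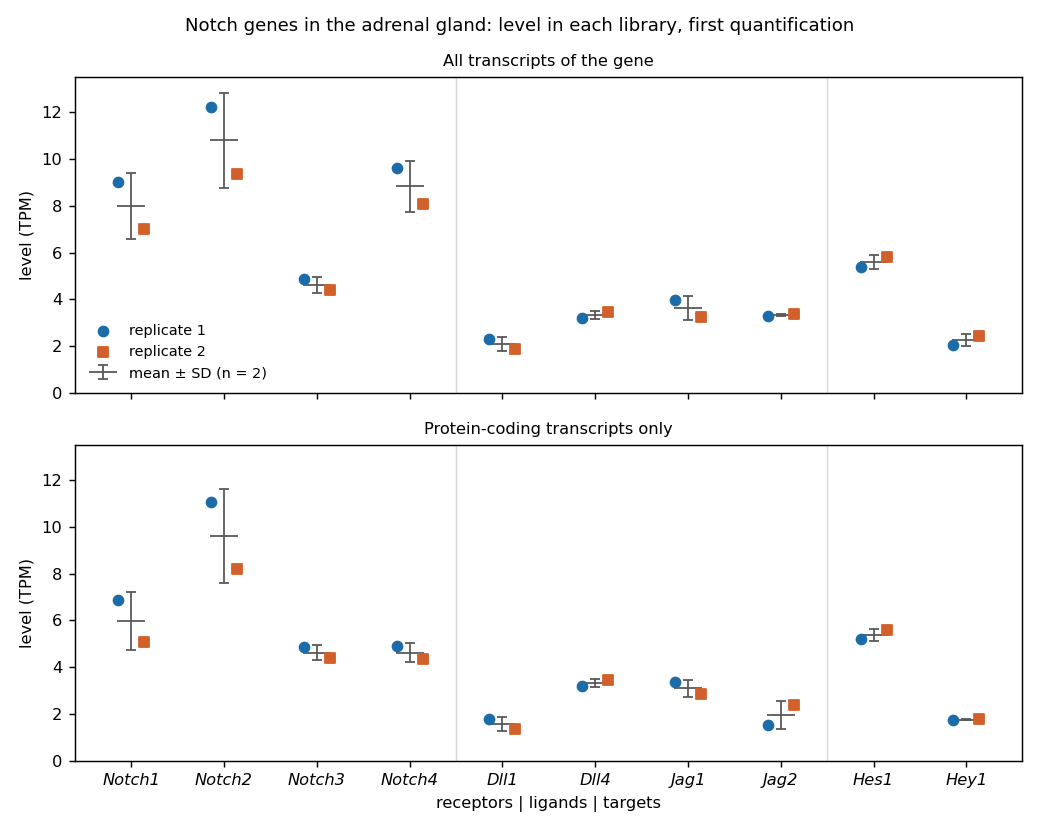
Level of the 10 Notch genes in TPM, ordered by role, over all transcripts (top) and over protein-coding transcripts (bottom) of the first quantification, with a point for each library and the mean ± SD (n = 2). Notch2 reached 12.2 and 9.36 TPM in replicates 1 and 2, while the ligands lay between 1.88 and 3.99 TPM.

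Part of these levels lay on non-coding transcripts. In the first transcript table these held 3.33% of the expected counts of the 10 genes in replicate 1 and 3.07% in replicate 2, but 20.5% and 19.7% of their TPM. Notch4 was the clearest case among the receptors. Its 11 non-coding transcripts held 7.33% of its counts in replicate 1 and 5.30% in replicate 2, and 48.9% and 46.2% of its TPM. Notch4-210 (619 bases) alone had 28.67 counts and 1.59 TPM in replicate 1, and 29.14 counts and 1.70 TPM in replicate 2. On coding transcripts alone, Notch4 had 4.90 TPM in replicate 1 against 4.34 TPM in replicate 2, which overlapped Notch3 at 4.86 TPM in replicate 1 against 4.39 TPM in replicate 2. The place of Notch4 beside Notch1 and Notch2 therefore held only with the non-coding transcripts counted.

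Jag2 was the clearest case among the ligands. Non-coding transcripts held 53.8% of its TPM in replicate 1 and 29.6% in replicate 2, and 12.3% and 5.12% of its counts. Jag2-205 (750 bases) had 22.83 counts and 1.01 TPM in replicate 1, and 9.77 counts and 0.46 TPM in replicate 2. The coding transcripts of Jag2 had 1.52 TPM in replicate 1 against 2.38 TPM in replicate 2, below Dll4 and Jag1 in both libraries. Those of Dll1 had 1.78 TPM in replicate 1, above Jag2, and 1.37 TPM in replicate 2, below it. For Notch3 and Dll4 the first table placed every count on the main coding transcript, and Hes1 had 96.15% of its TPM there in replicate 1 and 95.81% in replicate 2.

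The second transcript table, made from the read files and an index, placed a few members differently. Notch4-210 had 0 estimated counts in replicate 1 and 5.24 in replicate 2 there, and non-coding transcripts held 51.5% of the TPM of Notch4 in replicate 1 and 18.4% in replicate 2. Notch1-202 had 13.7 estimated counts and 3.70 TPM in replicate 1, and 0 counts in replicate 2. Hes1-203 had 19.6 estimated counts and 5.27 TPM in replicate 1, and 0 counts in replicate 2. Dll4-202, a non-coding transcript of 692 bases, had 0 counts in replicate 1, and 13.1 counts and 1.27 TPM in replicate 2. With those transcripts included, Hes1 had 12.7 TPM in replicate 1 against 8.19 TPM in replicate 2 in that table, the reverse of its order in the gene table. The estimated counts of Hes1 there were 266 in replicate 1 and 262 in replicate 2. That table took about 300 and 321 bases off a transcript's length in replicates 1 and 2 for its TPM, against 99 in the first table. A few reads on a short transcript thus gave more TPM in the second table. TPM in the second table was higher over genes at large, with a median ratio to the gene table of 1.40 in replicate 1 and 1.45 in replicate 2 over all genes of at least 1 TPM, and of 1.39 and 1.36 over the 10 members. On coding transcripts alone, the order in that table was Notch2 first, then Notch1 overlapping Hes1, Notch4 overlapping Notch3, Dll4 overlapping Jag1, and Jag2, Dll1 and Hey1 lowest. The coding order of the first table was the same apart from overlapping neighbours.

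**Figure D2:**
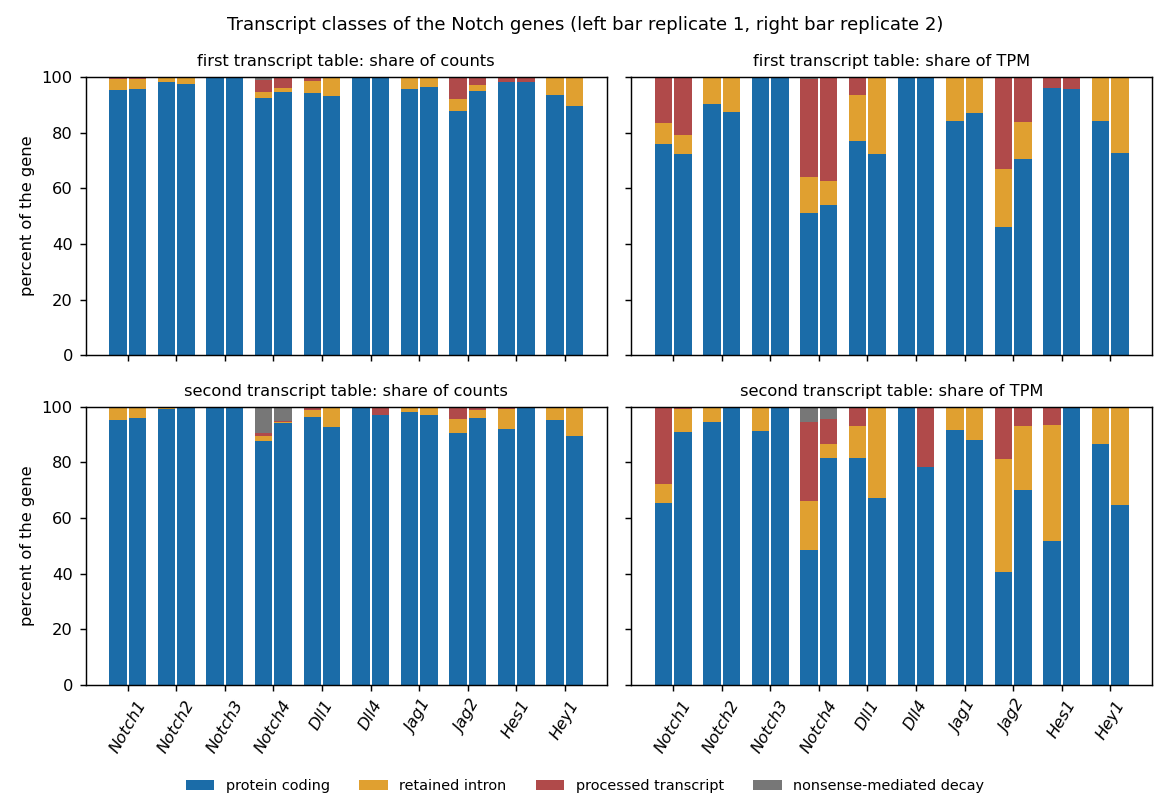
Percent of each gene's counts (left panels) and TPM (right panels) by transcript class in the first (top) and second (bottom) transcript table, with the bar of replicate 1 left of that of replicate 2. Non-coding transcripts took 53.8% of the TPM of Jag2 in replicate 1 and 29.6% in replicate 2 in the first table.

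Other genes share exon bases with some members, and the sources used here do not say whether counting used strand. Gm17276, antisense to Notch3 over 488 shared exon bases, had 93 counts in replicate 1 and 24 in replicate 2. 0610009E02Rik, antisense to Notch1 over 1068 bases, had 25 counts in replicate 1 and 7 in replicate 2, and Gm13568, also antisense to Notch1, had 3 and 0. A930024N18Rik, antisense to Dll1 over 867 bases, had 5 counts in replicate 1 and 8 in replicate 2, and Gm14207, antisense to Dll4 over 214 bases, had 5 and 6. Gm42820, on the strand of Notch2 over 541 shared bases, had 38.94 counts in replicate 1 and 24.47 in replicate 2, and Notch2 was the 1 member whose expected counts were not whole to within 0.005. Each of these had far fewer counts than its member gene. Notch1, Notch3, Dll1 and Dll4 and their antisense partners had whole counts in both libraries. The posterior SD of the count (the quantification's own spread) was 0 for these members, against 1.41 and 1.30 for Notch2 in replicates 1 and 2. Their counts were thus not split with an antisense partner. The labels call the kit directional. Without strand in the counting, reads from the shared bases could be placed on either gene. Whether counting used strand was not tested.

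RefSeq promoter windows (GRCm38.p6, from 250 bases before a gene's start to 50 after) were matched for 8 members with 9 windows. Hes1 and Hey1 were not matched. The RBPJ core TGGGAA, searched on both strands, was in 0 of the 9 windows, against 25.6% of all 32851 windows. The E-box CACGTG was in 0 of 9, against 7.15% of all windows. CACGNG, which also takes in every CACGTG, was in 7 of 9 windows, against 27.5% of all, in Notch2, Notch3, Jag1, Jag2, Dll4 and both windows of Dll1. The median GC content was 63.7% over the member windows and 52.7% over all windows. A match or its absence here says only whether these letters are in the window.

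The difference between the libraries was taken as log2 of replicate 1 over replicate 2 from expected counts, scaled with TMM so that the bulk of genes is centred near 0, with an exact conditional binomial test of the counts over 16155 genes and Benjamini-Hochberg adjustment under 0.05. That test compares these 2 libraries only and covers counting error, and it called 53.2% of all genes tested, 24.7% as higher in replicate 1 and 28.5% as lower. Of the 10 members, 0 were called higher, 6 lower and 4 in neither direction, and 0 differed by 2-fold, which 10.9% of all genes did (2.59% higher and 8.35% lower). At 1.5-fold, 1 member passed, Jag2, against 23.2% of all genes. The median over the members was -0.30, against 0.003 over all genes tested. The share called lower is above the background share, in a list chosen with earlier results of these data known, and no test of the list was made. TPM gives another centre: without the scaling, the median of all genes lay 0.31 higher in replicate 1 on the log2(TPM + 1) scale. The TPM of a member can therefore be higher in replicate 1 while its scaled difference is 0 or negative.

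Notch1 and Notch2 differed by less than counting error, with log2 differences of 0.01 (95% interval -0.08 to 0.10, exact binomial adjusted p = 0.855) and -0.0002 (-0.07 to 0.07, adjusted p = 1). Notch3 was lower in replicate 1 by 0.27 on the log2 scale (log2 difference -0.27, exact binomial adjusted p = 9.7e-06), and Notch4 by less (-0.21, exact binomial adjusted p = 0.00184), but with spike-in scaling the differences of Notch3 and Notch4 were 0.00049 and 0.062 and not called. Jag2 had the widest difference of the members, at -0.79 (-1.02 to -0.57, exact binomial adjusted p = 9.1e-12), and replicate 2 exceeded replicate 1 by 1.73-fold on scaled counts. That rank held on scaled counts and not on TPM over all transcripts. There the difference of Jag2 was -0.023 on the log2(TPM + 1) scale, the closest to 0 of the 10 members. The median of all genes on that scale was 0.31, so Jag2 still lay below the bulk of genes. On coding transcripts alone, Jag2 had 1.52 TPM in replicate 1 against 2.38 TPM in replicate 2. Dll4 was lower in replicate 1 at -0.53 (exact binomial adjusted p = 7.9e-07). Dll1 at -0.33 (exact binomial adjusted p = 0.067) and Jag1 at -0.17 (exact binomial adjusted p = 0.083) were not called. Both targets were lower in replicate 1: Hes1 at -0.52 (-0.78 to -0.27, exact binomial adjusted p = 0.000166) and Hey1 at -0.50 (-0.84 to -0.16, exact binomial adjusted p = 0.0075).

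These calls depended on the scaling. With the ERCC spike-ins as scale, which puts the median of all genes at 0.28 and calls 52.8% of them higher in replicate 1 and 15.7% lower, Notch1 (0.29) and Notch2 (0.28) were called higher, Dll4 (-0.25) and Jag2 (-0.52) lower, and the other 6 in neither direction. With total counts as scale, which calls 58.3% of all genes higher and 14.1% lower, Notch1 and Notch2 were called higher and Jag2 lower, and Dll4 (-0.19), Hes1 (-0.19) and Hey1 (-0.16) were not called. With the counts of the second transcript table, Dll1 (-0.38, exact binomial adjusted p = 0.0218) and Jag1 (-0.24, exact binomial adjusted p = 0.00726) were called lower as well. Jag2 was lower in replicate 1 and called in every count scaling run, and Dll4, Hes1 and Hey1 had negative differences in all of them.

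**Figure D3:**
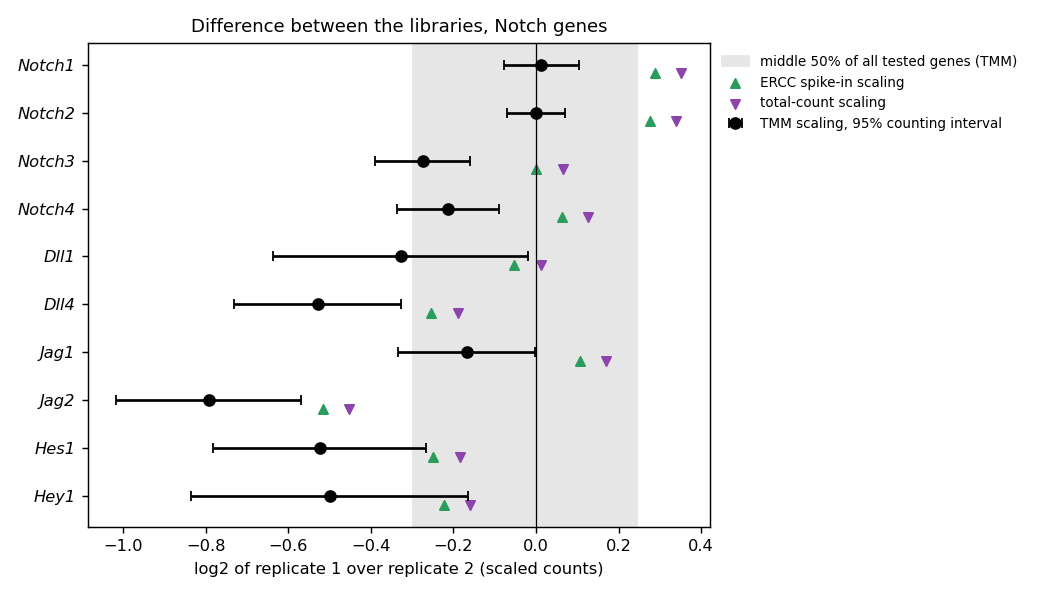
Log2 difference of replicate 1 over replicate 2 for the 10 Notch genes on TMM-scaled expected counts, with 95% Clopper-Pearson intervals for counting error (black), spike-in and total-count scaling as triangles, and the middle 50% of all genes tested on the TMM scale as a grey band. Jag2 lay at -0.79 and Notch1 and Notch2 near 0 with TMM, and Notch2, Notch3, Notch4 and Jag1 were above 0 under both other scalings and Dll1 under total counts.

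Cell type markers moved beside these differences on the TMM scale, and their part in them was not tested. On that scale 24.7% of all genes tested were called higher in replicate 1 and 28.5% lower. With the ERCC spike-ins as scale the median of all genes lay at 0.28, so small negative differences need not hold there. All marker calls below are on the TMM scale. All 9 pericyte and smooth muscle markers were called lower in replicate 1 (median -0.37; summed TPM 102 in replicate 1 and 100.5 in replicate 2), the cells in which Notch3 is best known. Of 6 arterial endothelial markers, 5 were tested and all 5 were called lower (median -0.63; 17.96 TPM in replicate 1 against 18.97 TPM in replicate 2). Of 10 endothelial markers, 2 were called higher and 5 lower (median -0.12; 294.5 TPM in replicate 1 against 231.7 TPM in replicate 2). Of 6 stroma and capsule markers, 4 were called lower (median -0.75). All 11 thymocyte and T cell markers were called higher in replicate 1 (median 5.32), and no marker of any list had 0 counts in replicate 1. The 7 hepatocyte markers were all called lower (median -6.31), as were the 6 skeletal muscle markers (median -5.23). Of the other lists, all 6 cortex markers (median 0.92) and all 6 chromaffin markers (0.74) were called higher. All 5 adipocyte markers (-0.65), 3 of 4 macrophage markers (-0.95) and 2 of 6 Schwann and sustentacular markers (-0.60) were called lower. Of 4 tested bile duct markers, 3 were called lower and 1 higher (-1.10). Both tested thymus epithelium markers were called higher, Ccl25 at 0.34 and Prss16 at 6.41.

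The other genes of the pathway were described from a list of 73, of which 63 had a mean count of at least 20 and were tested. Of these, 24 were called higher in replicate 1 and 12 lower, with a median of 0.07, against 24.7% and 28.5% of all genes. The counts called in each class below are to be read beside those shares. On the ERCC scale the same list gave 43 higher and 2 lower, against 52.8% and 15.7% of all genes. None passed 2-fold on the TMM scale.

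Among the other ligands and ligand-like genes, Dlk1, an imprinted membrane protein of the Delta-like family, was far above the rest, at 176.8 TPM in replicate 1 against 77.8 TPM in replicate 2, and was called higher in replicate 1 (0.78). Mfap5 and Mfap2, microfibril proteins, had means of 9.52 ± 1.10 and 7.16 ± 0.75 TPM (SD, n = 2). Of the other Hes and Hey genes, Hes6 reached 38.3 TPM in replicate 1 against 19.7 TPM in replicate 2 (0.56, called higher), while Heyl had 3.64 TPM in replicate 1 against 3.57 TPM in replicate 2 (-0.39, called lower). Hey2 was at 0.44 ± 0.042 TPM, and Hes2 and Hes5 had 0 counts in both libraries. Hes6 was therefore higher than both Hes1 and Hey1 in each library, but whether Notch acts on Hes6 was not tested. Hes5, a target often read as a sign of Notch activity in neural tissue, was not detectable at this depth.

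Of the target genes listed outside the Hes and Hey families, Ccnd1, a cell cycle gene, had 26.3 TPM in replicate 1 against 23.1 TPM in replicate 2 (-0.17, called lower). Myc had 22.1 TPM in replicate 1 against 9.87 TPM in replicate 2 (0.71, called higher). Dtx1, a target and regulator of Notch in lymphocytes, had 4.07 TPM in replicate 1 against 1.90 TPM in replicate 2 (0.37, called higher). Ptcra, with 10 counts in replicate 1 and 1 in replicate 2, and Il2ra, with 34 and 5, both genes of developing T cells, were named after their values were seen and lay outside the test.

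The nuclear complex showed 6 of 8 tested genes called higher in replicate 1 and 0 lower, against 24.7% and 28.5% of all genes. Kat2b, a histone acetyltransferase, had 27.2 TPM in replicate 1 against 15.4 TPM in replicate 2 (0.04, not called), and Snw1 was not called either (0.07, mean 18.9 ± 4.50 TPM). Ep300, the acetyltransferase p300, was higher at 21.7 TPM in replicate 1 against 14.4 TPM in replicate 2 (0.22). Rbpj, the DNA-binding partner of the receptor domain and named after its values were seen, had 12.9 TPM in replicate 1 against 7.15 TPM in replicate 2 (0.28, called higher). Of 14 corepressors, 5 were called higher and 2 lower. Ncor1 was called higher (0.21), at a mean of 58.5 ± 21.8 TPM, and Ctbp1 was not called (-0.04, 49.8 ± 7.44 TPM, SD, n = 2 each).

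Among the 10 cleavage genes, 2 were called higher and 3 lower. Aph1a, a subunit of gamma-secretase, had 35.2 TPM in replicate 1 against 47.1 TPM in replicate 2 (-0.53, called lower), and Furin, which cuts the receptor on its way to the surface, had 42.2 TPM in replicate 1 against 38.8 TPM in replicate 2 (-0.32, called lower). Psenen, another subunit of gamma-secretase, was not called (-0.05, 35.5 ± 7.0 TPM). Of the 5 glycosylation genes, which add sugars to the receptor, 0 were called in either direction by the exact binomial test, and Pofut1, Poglut1 and Rfng had means of 8.37 ± 2.19, 6.47 ± 1.47 and 5.14 ± 0.757 TPM (SD, n = 2).

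Of the 4 genes of ligand ubiquitination, 1 was called higher and 2 lower. Mib1 had 20.8 TPM in replicate 1 against 18.7 TPM in replicate 2 (-0.10, called lower), Neurl1b was not called (0.02, 13.4 ± 2.72 TPM) and Mib2 was called lower (-0.17, 10.4 ± 1.47 TPM). Among 11 genes of receptor turnover, 6 were called higher and 2 lower. Nedd4, a ubiquitin ligase, had the highest mean of the 73, with 163.8 TPM in replicate 1 against 109.9 TPM in replicate 2 (0.12, called higher). Aak1 (20.8 ± 6.89 TPM) and Dtx3 (16.9 ± 5.54 TPM) were called higher at 0.43 and 0.25.

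**Figure D4:**
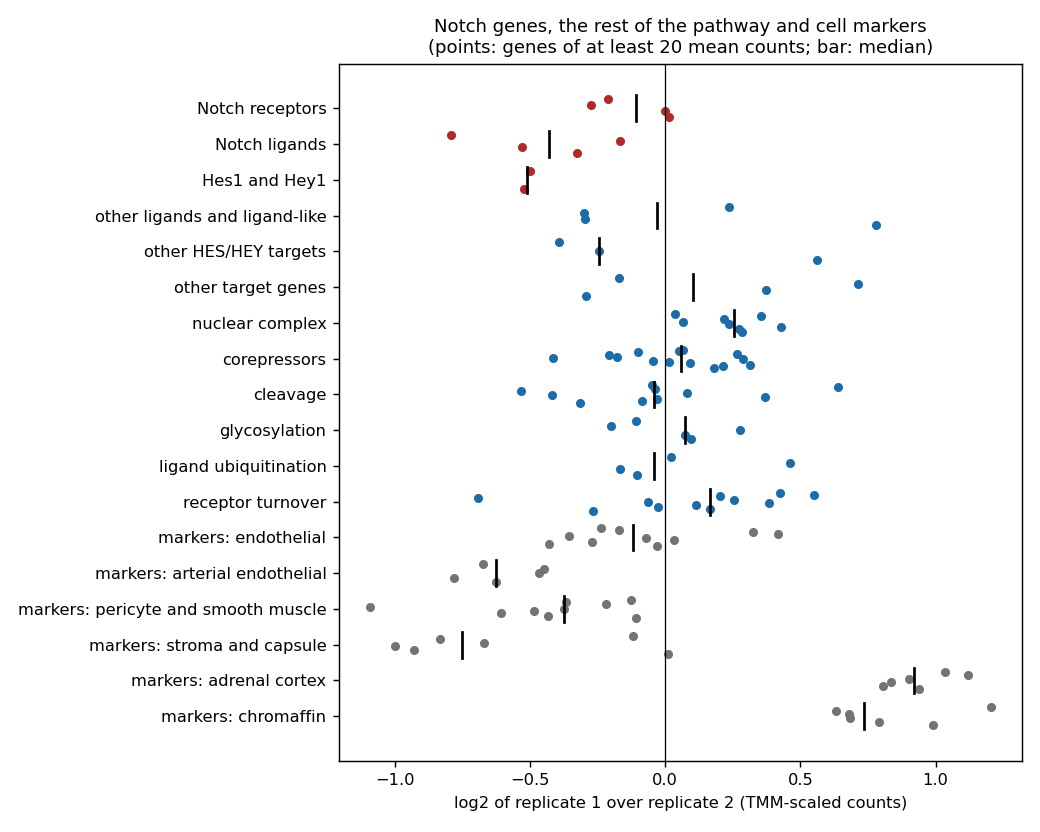
Log2 difference of replicate 1 over replicate 2 on TMM-scaled counts for the Notch genes (red), the other pathway genes (blue) and 6 marker lists (grey), a point for each gene of at least 20 mean counts and a bar at the median. Of the 8 tested genes of the nuclear complex, 6 were called higher, and Kat2b and Snw1 were not called. Both targets Hes1 and Hey1 were called lower. Of all genes tested, 24.7% were called higher and 28.5% lower.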

How the data were processed

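Total RNA-seq of 2 libraries of 1 group was used. The authors' gene table and first transcript table give expected counts and TPM, per the file headers, and the first transcript table also gives each transcript's percent of its gene's deposited TPM. Per the file headers, estimated counts and TPM make up the second transcript table. All TPM values are relative to every entry of their table. Per the labels, the assembly is mm10 and the kit is directional. The annotation is GENCODE M21. The aligner and quantifiers were not given in the sources used here. Expected counts were rounded.

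Levels are TPM. Differences are log2 of TMM-scaled counts (edgeR 4.0.16) with a prior count of 0.5 over non-mitochondrial genes that averaged 20 or more counts. The test was an exact conditional binomial test, made two-sided by doubling the smaller tail (Benjamini-Hochberg under 0.05, SciPy 1.17.1). It was run on simulated Poisson counts, which hold counting error only. That run therefore cannot show how the test behaves with further spread between libraries. Intervals are Clopper-Pearson at 95% and cover counting error.

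The members, the list of 73 pathway genes, the 14 marker lists and the tests were chosen with earlier results of these data known. Of the pathway genes, those past 2-fold, the 3 of highest mean TPM per class and those with 0 counts in both libraries were named. Exon overlaps were named too. One gene that this rule names is not reported here. A planned comparison of protein sequences was not run. Alternatives covered DESeq2 (1.42.0), spike-in and total-count scaling, count filters, pseudocounts and the second table. They also covered TPM over protein-coding genes outside the mitochondrial genome, and leaving out each replicate. TPM over coding transcripts alone was added after the values were seen.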

Additional observations from a re-analysis of the deposited data

How the results depend on the processing

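No paired analysis was possible because the labels name 1 group. Log2 differences are replicate 1 over replicate 2. With ERCC scaling 2 members were called higher and 2 lower (median -0.026), with 43 other pathway genes higher, 2 lower (of all genes, 52.8% were called higher and 15.7% lower), 1 past 2-fold and a median of 0.34, and Notch2 (0.28), Notch3 (0.00049), Notch4 (0.062) and Jag1 (0.11) turned positive. With total counts 2 members were higher and 1 lower (median 0.038), with 48 pathway genes higher, 2 lower (of all genes, 58.3% higher and 14.1% lower), 2 past 2-fold and a median of 0.41, and Notch2 (0.34), Notch3 (0.064), Notch4 (0.13), Jag1 (0.17) and Dll1 (0.011) turned positive. These scalings move the median of all genes by 0.28 and 0.34. On log2(TPM + 1) the member median was 0.16, the pathway median 0.41 with 2 past 2-fold, and the differences were Notch3 0.12, Notch4 0.23, Dll1 0.20 and Jag1 0.23, and Jag2 was -0.023 against -0.79 on scaled counts. On log2(TPM + 0.1) they were 0.20, 0.49 with 3, 0.14, 0.25, 0.28 and 0.28, and Jag2 was -0.029. Past 2-fold were 1, 6 and 1 pathway genes with a minimum mean count of 10, with no filter and in the second table. At 1.5-fold, 1 member and 4 pathway genes passed.

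Summed TPM of receptors, ligands and targets was 39.6, 18.2 and 13.8 in the second table. The TPM of that table is 1.40 and 1.45 times the gene table in replicates 1 and 2 over the median gene. The sums were 113.1, 43.5 and 27.7 over protein-coding genes outside the mitochondrial genome, and 24.8, 9.96 and 7.14 on coding transcripts. In the second table on coding transcripts ligands had 13.9 and targets 9.89. Left-out replicates gave sums of 28.8 to 35.7, 11.96 to 12.8 and 7.47 to 8.26. With 2 libraries, leaving out 1 only returns the value of the other, so these ranges and those below are no added check. The log2 ratio of receptors to ligands was 1.09 in the second table, 1.22 on its coding transcripts, 2.33 on counts and 1.27 to 1.48 with a replicate left out. The ratio of Notch4 to Notch3 was -0.0024 on coding transcripts and -0.20 on counts. Jag1 to Jag2 was -0.14 in the second table and -0.048 to 0.27 with a replicate left out. Jag1 to Dll4 was -0.096, -0.10 and -0.076 in the second table, on coding transcripts and on those of the second table, and -0.082 to 0.32 with a replicate left out. Over all alternatives, where a single member kept its direction, the call was lost in 5 cases and gained in 4. Cases that changed direction are not in these counts. Among those, Notch3 and Notch4 lost the call and Notch2 gained one with both ERCC and total-count scaling. The cause was not tested. Genes with few counts, such as Hey1 and Dll1, have wide intervals at this depth.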
